A study of Mus musculus with 12 samples.

Results

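The genes described here are 10 genes of cytochrome c oxidase (complex IV) and its response to low oxygen, of 37681 mouse genes in the deposited table. They form 4 pairs of paralogues, Ndufa4l2 with Ndufa4, Cox4i2 with Cox4i1, Cox6a2 with Cox6a1 and Cox7a1 with Cox7a2, to which Higd1a and Lonp1 were added. The genes were chosen by name with the TG+ and TG- values of these same mice known, so their own differences are given as a description, without p-values. RNA came from a thin layer of kidney cortex of male C57BL/6 mice, 18 months old and untreated. The 3 TG+ mice (43-29, 43-49 and 43-75) carried the TRACK transgene (γ-HIF1αM3), a mutated HIF1α that is active whatever the oxygen level. It is expressed from a γ-GT (GGT) promoter in the proximal tubules only, as a model of clear cell renal cell carcinoma, so other cells of the cortex carry the transgene without being meant to express it. The 3 TG- mice (43-26, 43-50 and 43-76) were wild-type littermates. Both kidneys of each mouse were sequenced as separate libraries, and their reads were summed, so that the mouse was the unit (n = 3 per group).

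Complex IV is the last enzyme of the mitochondrial respiratory chain and passes electrons from cytochrome c to oxygen. Its core subunits are encoded in mitochondrial DNA and are surrounded by small subunits encoded in the nucleus, several of which exist in alternative forms. COX4I2 replaces COX4I1 in lung and in low oxygen, COX6A2 and COX7A1 are the forms of heart and skeletal muscle, and NDUFA4L2 is a hypoxia-induced relative of NDUFA4, a subunit first assigned to complex I and later found in complex IV. HIF1α, the oxygen-regulated subunit of the transcription factor HIF1, is known to induce COX4I2 together with LONP1, the matrix protease that removes COX4I1, and HIGD1A is a small hypoxia-induced protein of the inner membrane that binds complex IV. HIF1 binds DNA at short motifs whose core is ACGTG or GCGTG.

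RefSeq promoters (GRCm38.p6, 250 bases before to 50 after the start site) were matched by symbol for 6 of the 10 genes, Ndufa4, Cox6a1, Cox7a1, Cox7a2, Higd1a and Lonp1. Ndufa4l2, Cox4i1, Cox4i2 and Cox6a2 are named only. Of the matched promoters, 4 are printed, those of the genes that were higher (Higd1a, Lonp1), lower (Ndufa4) and overlapping between the groups (Cox6a1), with every ACGTG or GCGTG on either strand in capitals (CACGT and CACGC are the same motifs on the other strand, and a CACGTG holds the first motif on both strands).
Higd1a, chr9:121857747-121858046, minus strand: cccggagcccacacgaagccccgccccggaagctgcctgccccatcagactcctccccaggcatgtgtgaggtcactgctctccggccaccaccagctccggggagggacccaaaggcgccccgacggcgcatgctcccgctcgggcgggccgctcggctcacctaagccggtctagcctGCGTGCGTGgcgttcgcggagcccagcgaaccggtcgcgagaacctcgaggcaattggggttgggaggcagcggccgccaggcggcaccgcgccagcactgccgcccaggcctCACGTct
Lonp1, chr17:56626854-56627153, minus strand: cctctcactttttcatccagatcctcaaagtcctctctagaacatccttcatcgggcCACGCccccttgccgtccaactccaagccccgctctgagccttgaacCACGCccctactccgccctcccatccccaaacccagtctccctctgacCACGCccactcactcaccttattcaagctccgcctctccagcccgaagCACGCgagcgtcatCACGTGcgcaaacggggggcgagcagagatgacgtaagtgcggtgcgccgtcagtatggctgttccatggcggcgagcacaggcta
Ndufa4, chr6:11907401-11907700, minus strand: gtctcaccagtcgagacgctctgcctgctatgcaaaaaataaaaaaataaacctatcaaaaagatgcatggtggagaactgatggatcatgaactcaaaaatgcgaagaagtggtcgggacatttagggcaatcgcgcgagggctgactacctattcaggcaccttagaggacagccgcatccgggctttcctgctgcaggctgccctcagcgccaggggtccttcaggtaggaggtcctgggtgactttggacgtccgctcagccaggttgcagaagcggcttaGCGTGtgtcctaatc
Cox6a1, chr5:115348909-115349208, minus strand: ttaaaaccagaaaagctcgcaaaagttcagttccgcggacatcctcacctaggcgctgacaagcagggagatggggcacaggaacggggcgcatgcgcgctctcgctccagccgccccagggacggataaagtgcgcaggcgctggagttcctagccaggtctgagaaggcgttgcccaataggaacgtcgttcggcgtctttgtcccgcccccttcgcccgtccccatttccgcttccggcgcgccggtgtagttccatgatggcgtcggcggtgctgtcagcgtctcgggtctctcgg

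The Higd1a promoter held GCGTG at positions -70 and -66 from the start site, overlapping each other, and ACGTG on the other strand at position 43. The Lonp1 promoter held an ACGTG pair at -36 and -35 that overlap as CACGTG, and GCGTG on the other strand at 4 places between -193 and -50. In the Ndufa4 promoter GCGTG stood at position 35, after the start site. Cox6a1 held neither motif, and of the promoters not printed Cox7a2 held 1 GCGTG and Cox7a1 held 2 GCGTG and 1 ACGTG. In all, 5 of 6 promoters held either motif and 3 held ACGTG. Of all 32851 promoters in the table, 43.8% held either motif, 19.6% held ACGTG and 32.4% held GCGTG. The matches are letters in these windows and not measured binding.

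Each mouse had between 48052131 and 60506785 reads. All 10 genes passed the filter on low counts, and 19399 genes were tested in all with edgeR's quasi-likelihood test. By the study's threshold (Benjamini-Hochberg adjusted p under 0.01 with a fold change above 2 or below 0.5), 3.77% of the tested genes (732) were called higher and 0.211% (41) lower in TG+, with 469 and 30 when the TG- mouse 43-76 was left out. Of the 10 genes, Ndufa4l2, Cox4i2 and Higd1a were called higher and none was called lower. By the second rule used here, an adjusted p under 0.05 with any fold change, 15.4% of the tested genes were higher and 10.9% lower. Of these calls 58.6% were higher, and 82.6% when libraries were scaled by size alone, so small differences under this rule depend on the scaling. Under that rule Lonp1 was also higher and Ndufa4 was lower, which gives 4 of 10 genes higher and 1 of 10 lower. Both kept these calls under every alternative run. The second rule gave 5 higher and 2 lower with DESeq2 (adding Cox6a2 and Cox4i1), 5 higher with library size alone (adding Cox7a1), and 6 higher and 3 lower with each kidney as its own library (adding all of these and Cox7a2), a fit that takes the 2 kidneys of a mouse as independent replicates. The second rule also added Cox6a2 without 43-29 and with a replicate block, a fit that pairs mice as their numbers stand in the table's name. The members' counts were fixed by the choice of the genes and are printed beside the background only as a description. Levels are given as CPM, read counts scaled to the TMM-normalized library size, when mice are compared for the same gene, and as the deposited RPKM, per length, when genes are compared. The median log2 fold change of all tested genes was 0.01, and 0.31 over the 10 genes. In this bulk tissue, more cells of a kind and more RNA per cell cannot be told apart.

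**Figure D1:**
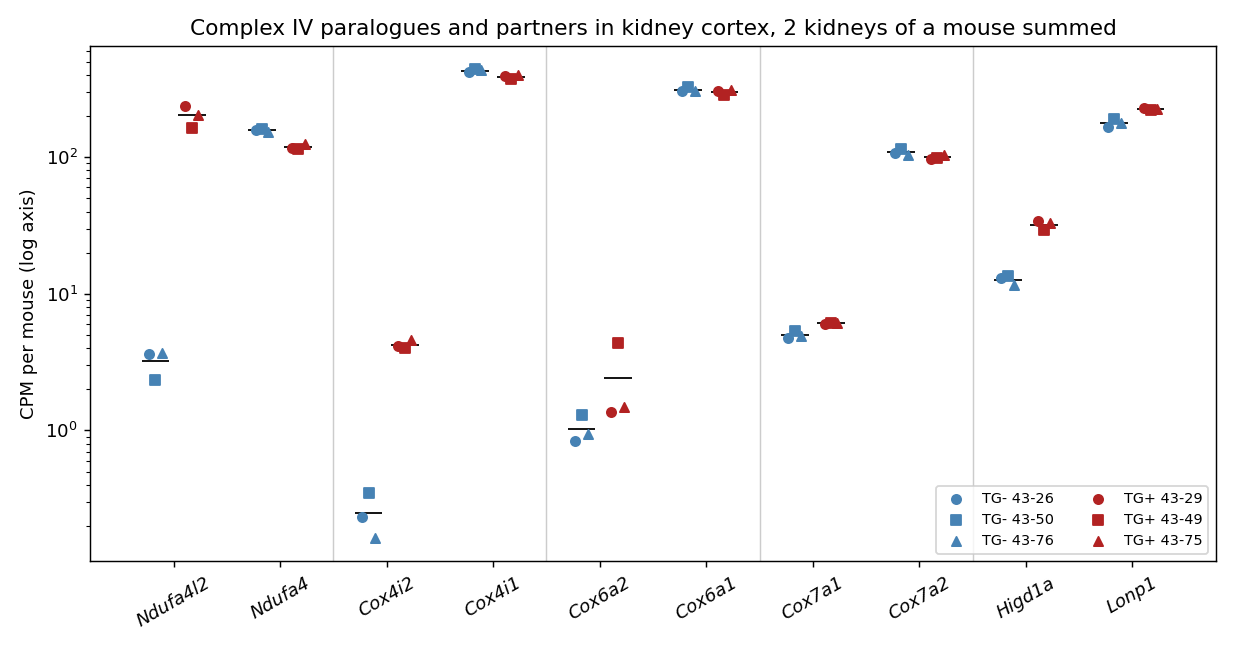
CPM of each gene in each mouse on a log axis, 2 kidneys summed, TG- in blue and TG+ in red, with a horizontal line at the mean of the 3 mice. The groups stand apart most for Ndufa4l2 and Cox4i2, while the TG+ and TG- mice of Cox6a1 overlap. The genes were chosen with these values known, so a gap between the groups is only a description.

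Ndufa4l2, on chr10:127514967-127517154, plus strand, went from a minor transcript to a level near that of its partner, or above it with other gene lengths. Its level was 238, 163 and 205 CPM in the TG+ mice 43-29, 43-49 and 43-75, and 3.65, 2.33 and 3.68 CPM in the TG- mice 43-26, 43-50 and 43-76. The lowest TG+ mouse stood far above the highest TG- mouse. The means were 202 ± 37.6 CPM in TG+ and 3.22 ± 0.772 CPM in TG- (SD, n = 3), a 63.1-fold difference with a log2 fold change of 5.98 (SE 0.27). The smallest number of reads behind a mouse's value was 133. Within TG+, 43-49 was the lowest and 43-29 the highest in both kidneys. In the GRCm38 annotation the gene overlaps Shmt2 on the opposite strand, and the counting is not stated to use strand.

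Ndufa4, on chr6:11900292-11907497, minus strand, moved the other way. Its level was 116, 114 and 124 CPM in TG+ and 159, 161 and 153 CPM in TG-, without overlap. The log2 fold change was -0.42 (SE 0.04), or 1.34-fold lower in TG+, which is far from the study's limit of 2-fold. Its call by the second rule is only a description, since the gene was chosen with these values known. The log2 ratio of Ndufa4l2 to Ndufa4 reads rose from -5.64 ± 0.40 to 0.76 ± 0.26, a change of 6.40 (SE 0.28). Per length, Ndufa4l2 made up 1.17%, 0.752% and 1.23% of the RPKM of the pair in the TG- mice, and 51.4%, 42.2% and 45.9% in the TG+ mice. The mean share was 1.05% ± 0.261 in TG- and 46.5% ± 4.63 in TG+. The sum of both genes was 328 ± 7.04 RPKM in TG- and 444 ± 41.3 RPKM in TG+, so the loss of Ndufa4 RPKM was smaller than the gain of Ndufa4l2. The share depends on the lengths of the genes. The deposited RPKM imply that Ndufa4l2 is 1.95 times as long as Ndufa4, while the principal GENCODE transcripts of 934 and 610 bases give 1.53 and a TG+ share of 52.5% ± 4.56, and merged exons give 0.793 and a share of 68.1% ± 3.96.

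Cox4i2, on chr2:152754173-152765037, plus strand, encodes the hypoxia and lung form of subunit IV, which lies beside the core and carries the site where ATP slows the enzyme in its usual form. Its level was 4.12, 4.04 and 4.58 CPM in TG+, from 204, 229 and 230 reads. In TG- it was 0.234, 0.350 and 0.164 CPM, from 12, 20 and 8 reads. The groups did not overlap, with a 16.6-fold difference and a log2 fold change of 4.06 (SE 0.32). Relative to the mean, the spread between mice was larger in TG-, where few reads lay behind each value.

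Cox4i1, the usual partner on chr8:120668222-120674207, plus strand, had the highest RPKM of the 10 genes in both groups. It measured 392, 375 and 397 CPM in TG+ and 419, 439 and 432 CPM in TG-. The groups did not overlap, but the log2 fold change of -0.15 (SE 0.03) was called by neither rule in the main edgeR fit. By the second rule Cox4i1 was called lower with DESeq2, and in edgeR with each kidney as its own library. The log2 ratio of Cox4i2 to Cox4i1 changed by 4.25 (SE 0.30), close in size to the change of Cox4i2 alone. Even so, Cox4i2 remained a small part of the pair, at 0.0311% ± 0.00946 of its RPKM in TG- and 0.512% ± 0.0228 in TG+. Cox4i1 had 3421 times the RPKM of Cox4i2 in TG- and 195 times in TG+. The deposited RPKM come from each count plus 1, which adds most to the TG- value of Cox4i2, where reads were few. By reads, the ratio of Cox4i2 to Cox4i1 rose 19.0-fold. With the lengths of principal transcripts the TG+ share was 1.13%, and with merged exons 2.11%. Cox4i1 overlaps Emc8 on the opposite strand and Gm20388 on its own strand, and 14.5% of the 51-base windows of its principal transcript also occur in Emc8.

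The 2 pairs of muscle and ubiquitous forms differed less. Cox6a2, on chr7:128205435-128206387, minus strand, measured 1.37, 4.37 and 1.49 CPM in TG+ and 0.838, 1.30 and 0.941 CPM in TG-. The TG+ mean rested on 43-49, and the lowest TG+ mouse was only just above the highest TG- mouse. The log2 fold change was 1.24 (SE 0.57) and was called by neither rule in the main edgeR fit. By the second rule Cox6a2 was called higher with DESeq2 and, in edgeR, with the replicate block (log2 fold change 1.12). The same rule called it higher in edgeR with each kidney as its own library and without the TG+ mouse 43-29. The other alternatives run did not call it. Without 43-49 the log2 fold change of Cox6a2 was 0.47, and the change of the log2 ratio to Cox6a1 fell from 1.10 (SE 0.60) to 0.53. Cox6a1, on chr5:115345642-115348981, minus strand, measured 305, 283 and 310 CPM in TG+ and 305, 324 and 307 CPM in TG-, so the groups overlapped. Its log2 fold change was -0.06 (SE 0.05) and turned to 0.06 when libraries were scaled by their size alone. Cox6a2 made up 0.613% ± 0.120 of the RPKM of the pair in TG- and 1.49% ± 1.10 in TG+. The TG+ share was 0.842% with merged exons and 0.687% with principal transcripts.

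Both kidneys of 43-49 were high for Cox6a2, with 111 and 137 reads against 29 to 39 in the other TG+ libraries and 16 to 38 in the TG- libraries. The same libraries held Adipoq, the fat hormone adiponectin, at 161 and 209 reads. Kidney 2 of 43-75 held 235 Adipoq reads, with 38 reads of Cox6a2. The summed level of the 6 fat markers ranged from 0.121 to 15.2 CPM in TG+ and from 0.0819 to 3.76 CPM in TG-, with the brown fat markers Ucp1 and Cidea at or near 0 and the other 4 of 6 tested but called by neither rule in edgeR or DESeq2 (unadjusted, 1 of 4 in each). With the replicate block, which pairs mice as their numbers stand in the table's name, all 4 of 4 were called higher by the second rule and 1 of 4 by the study's threshold. Lep alone was called higher by the second rule without 43-29, and also with no filter on low counts. Without 43-29 Lep passed the study's threshold too. The 8 striated muscle markers summed to between 5.32 and 6.15 CPM in TG+ and between 3.15 and 7.17 CPM in TG-. Ckm, muscle creatine kinase, had at most 4 reads in the TG+ libraries. The 5 libraries that held more than 20 reads of Adipoq or Ckm include both of 43-49. Without them the log2 fold change of Cox6a2 was 0.34, which cannot be told apart from leaving out 43-49 itself (0.47), and the part of fat in the value was not tested.

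**Figure D2:**
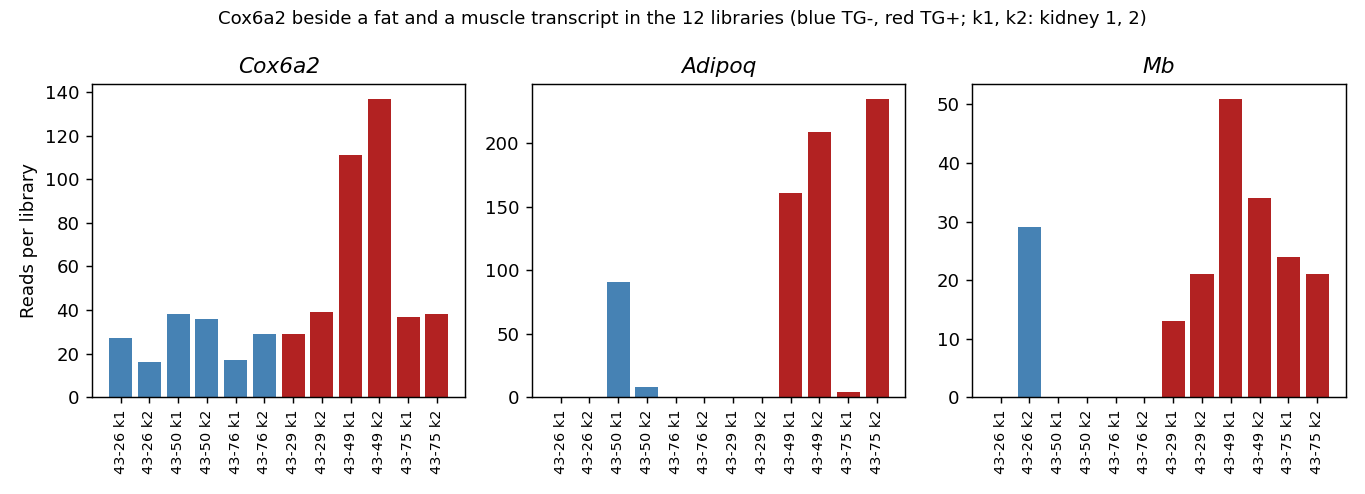
Reads per library of Cox6a2, of Adipoq (fat) and of Mb (myoglobin) in the 12 libraries, TG- in blue and TG+ in red, with kidneys 1 and 2 of each mouse side by side. Cox6a2 is high in both kidneys of 43-49 alone, Adipoq in those, in kidney 2 of 43-75 and, with 91 reads, in kidney 1 of 43-50, and Mb was found in all TG+ libraries and in 1 TG- library.

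Cox7a1, on chr7:30184144-30186078, plus strand, measured 6.00, 6.10 and 6.09 CPM in TG+ and 4.72, 5.31 and 4.91 CPM in TG-. Its partner Cox7a2, on chr9:79755361-79759878, minus strand, measured 97.2, 99.4 and 103 CPM in TG+ and 108, 115 and 104 CPM in TG-. Neither was called by the main edgeR fit or DESeq2. The log2 fold changes were 0.28 (SE 0.05) for Cox7a1 and -0.13 (SE 0.05) for Cox7a2, and neither pair of groups overlapped. With values of opposite sign, their log2 ratio changed by 0.42 (SE 0.04), the smallest change of the 4 pairs. Cox7a1 made up 8.33%, 8.77% and 8.94% of the RPKM of the pair in the TG- mice, and 11.4%, 11.3% and 11.0% in the TG+ mice. This muscle form thus held a larger share of its pair in TG- cortex than the other 3 paralogues did of theirs.

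**Figure D3:**
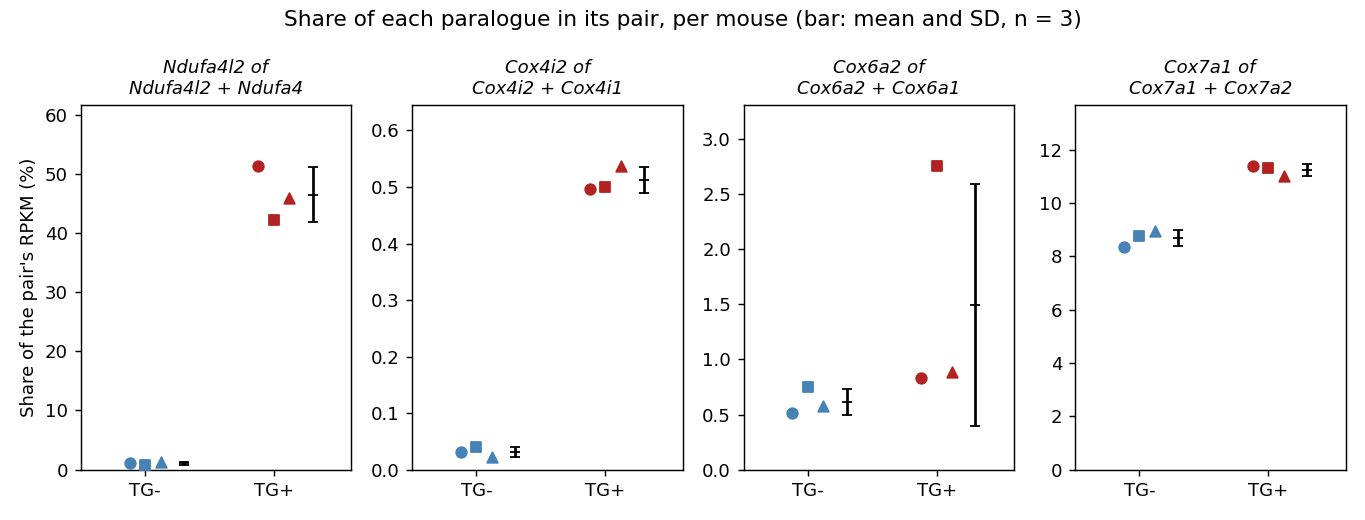
Share of each paralogue in the RPKM of its pair, in percent, for each TG- mouse (blue) and TG+ mouse (red), with mean and SD beside the points. Each panel has its own axis from 0. The Ndufa4l2 share reaches 42.2% to 51.4% in TG+, the Cox4i2 share stays under 1%, and the Cox6a2 share in TG+ is spread by 43-49.

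The order of the 10 genes was taken from the deposited RPKM and depends on its gene lengths. In TG- it ran from Cox4i1 (640 RPKM) through Ndufa4 (324), Cox6a1 (265), Cox7a2 (147), Lonp1 (30.5), Cox7a1 (13.9), Higd1a (6.87), Ndufa4l2 (3.44) and Cox6a2 (1.64) to Cox4i2 (0.200), and no neighbours overlapped between mice. In TG+ Cox4i1 stayed first at 563 RPKM and Cox4i2 last at 2.90 RPKM. Ndufa4l2 moved from the eighth to the fourth place, at 207 RPKM, where its mice overlapped those of Ndufa4 at 236 RPKM, and Ndufa4 overlapped Cox6a1 at 248 RPKM. Higd1a (16.9 RPKM) overlapped Cox7a1 (16.5 RPKM), and Cox6a2 (3.69 RPKM) overlapped Cox4i2. With the lengths of merged exons Cox6a1 came first in both groups (444 CPM per kilobase in TG- and 426 in TG+), before Cox4i1 (277 and 250). With those of principal transcripts their mice overlapped. In TG+ both sets of lengths put Cox6a2 last, below Cox4i2 but overlapping it, and Ndufa4l2 in the third place, after the eighth in TG-. Cox6a1 shares 11.9% of its 51-base windows with another annotated gene. Cox6a2 shares 3.17% with Itgad, which it overlaps on the opposite strand, and the counting is not stated to use strand. Ndufa4, Ndufa4l2, Cox4i2, Cox7a1, Cox7a2 and Lonp1 share none.

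Higd1a, on chr9:121848563-121858362, minus strand, was the third gene past the study's threshold. It measured 34.2, 29.2 and 33.0 CPM in TG+ and 13.1, 13.4 and 11.5 CPM in TG-, 2.53-fold higher without overlap. The log2 fold change was 1.34 (SE 0.10). It overlaps Gm47112 on the opposite strand, and 36.4% of its 51-base windows also occur in that gene or in Gm14925 or Gm9790, so reads there can be split. In the same family, Higd1b rose from 0.290 ± 0.0715 to 0.560 ± 0.111 CPM (log2 fold change 0.95, edgeR adjusted p = 0.0386), with 12 to 34 reads per mouse. That call was lost when any mouse was left out and with DESeq2. Higd2a, which also takes part in complex IV assembly, measured 98.7 ± 3.45 CPM in TG+ and 112 ± 6.75 CPM in TG- (log2 fold change -0.18, edgeR adjusted p = 0.0702). Higd2a was called lower by the second rule with DESeq2, with the replicate block and with each kidney as its own library.

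Lonp1, on chr17:56614297-56626887, minus strand, measured 230, 220 and 225 CPM in TG+ and 166, 191 and 178 CPM in TG-. The groups did not overlap, and the log2 fold change was 0.34 (SE 0.06), or 1.26-fold, under the 2-fold limit. Its call by the second rule is likewise only a description. Of 12 other mitochondrial proteases and chaperones, 11 had log2 fold changes below 0, with a median of -0.17. By edgeR 0 were called at the study's threshold, as with DESeq2, while at an adjusted p under 0.05 0 were higher and 6 were lower (unadjusted, 0 and 8). With libraries scaled by size alone 1 was higher and 0 were lower, and leaving out any mouse gave between 1 and 3 lower. The chaperonin Hspd1 fell by 0.27 on the log2 scale (edgeR adjusted p = 0.013), as did Clpx, the unfoldase of the matrix protease ClpXP (log2 fold change -0.27, edgeR adjusted p = 0.048). Clpp, its proteolytic subunit, Spg7, Oma1 and Trap1 were the other 4 genes lower by that rule. The call of Hspd1 was lost with library size alone, and that of Clpx also when any mouse was left out. Htra2, a protease of the intermembrane space, had the highest value of the list at 0.10 (edgeR adjusted p = 0.251), and the chaperone Hspa9 measured -0.04 (edgeR adjusted p = 0.648).

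The other complex IV subunits encoded in the nucleus, among them relatives of the pairs above such as Cox7a2l, were called by neither rule in edgeR or DESeq2. Of 13 genes, 9 were tested, 0 passed even an unadjusted p of 0.05 in edgeR or DESeq2, with log2 fold changes from -0.15 to 0.11 and a median of -0.09. By the second rule 1 of 9, Cox8a, was higher with library size alone, and 1 of 9, Cox5a, was lower with each kidney as its own library (unadjusted, 4 lower). Cox5a measured 156 ± 0.465 CPM in TG+ and 169 ± 11.3 CPM in TG- (log2 fold change -0.12, edgeR adjusted p = 0.192). Cox8a, at 237 ± 13.8 and 227 ± 5.50 CPM, had a log2 fold change of 0.06 (edgeR adjusted p = 0.471), and Cox6b2, the testis form, had 0.11 (edgeR adjusted p = 0.547). Cox5b had only 66 to 90 reads per mouse, and 25.5% of its 51-base windows occur in Gm11273. The muscle form Cox8b, the testis forms Cox7b2 and Cox8c, and AA467197 (the Nmes1 gene, a relative of Ndufa4) had too few reads to be tested, at most 13 per mouse. Of the 3 complex IV transcripts of mitochondrial DNA, mt-Co1 measured 11497 ± 879 CPM in TG+ and 14985 ± 904 CPM in TG-. It fell by 0.38 on the log2 scale (edgeR adjusted p = 0.00984), a call that the second rule kept under every alternative. mt-Co2 had at most 10 reads per mouse and mt-Co3 had 0, so both were left untested. The handling of reads that match more than 1 place is not given in the sources used here, so these counts, that of mt-Co1 included, may not give the level of the transcripts.

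Of 25 assembly factors, 24 were in the table and tested. By edgeR 0 were called at the study's threshold, as with DESeq2, while at an adjusted p under 0.05 0 were higher and 5 were lower (unadjusted, 0 and 11), with a median log2 fold change of -0.15. With libraries scaled by size alone 1 was higher and 2 were lower, and leaving out a mouse gave 3 or 4 lower. Cox15, which makes the heme A of complex IV, fell by 0.43 (edgeR adjusted p = 0.00211), and Taco1, which activates translation of mt-Co1, fell by 0.34 (edgeR adjusted p = 0.00624). Cox20, Coa7 and Sco2 were the other 3. Coa5 at 0.04 (edgeR adjusted p = 0.62) and Cmc1 at 0.07 (edgeR adjusted p = 0.574) were the only 2 of the 24 factors above 0. The 3 genes known as regulators of Cox4i2 were called by neither rule in the main edgeR fit (unadjusted, 1 higher and 2 lower). By the second rule DESeq2 gave 1 lower and library size alone 1 higher. Each kidney as its own library gave 1 higher and 2 lower. The log2 fold changes were 0.21 for the Notch effector Rbpj, -0.15 for Chchd2 and -0.32 for Cxxc5 (edgeR adjusted p = 0.0813, 0.108 and 0.0663). Hif1a itself measured 86.3 to 109 CPM in TG+ and 103 to 107 CPM in TG- (log2 fold change -0.12, edgeR adjusted p = 0.343). The transgene was not counted apart from it here, so this value does not check the labels.

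**Figure D4:**
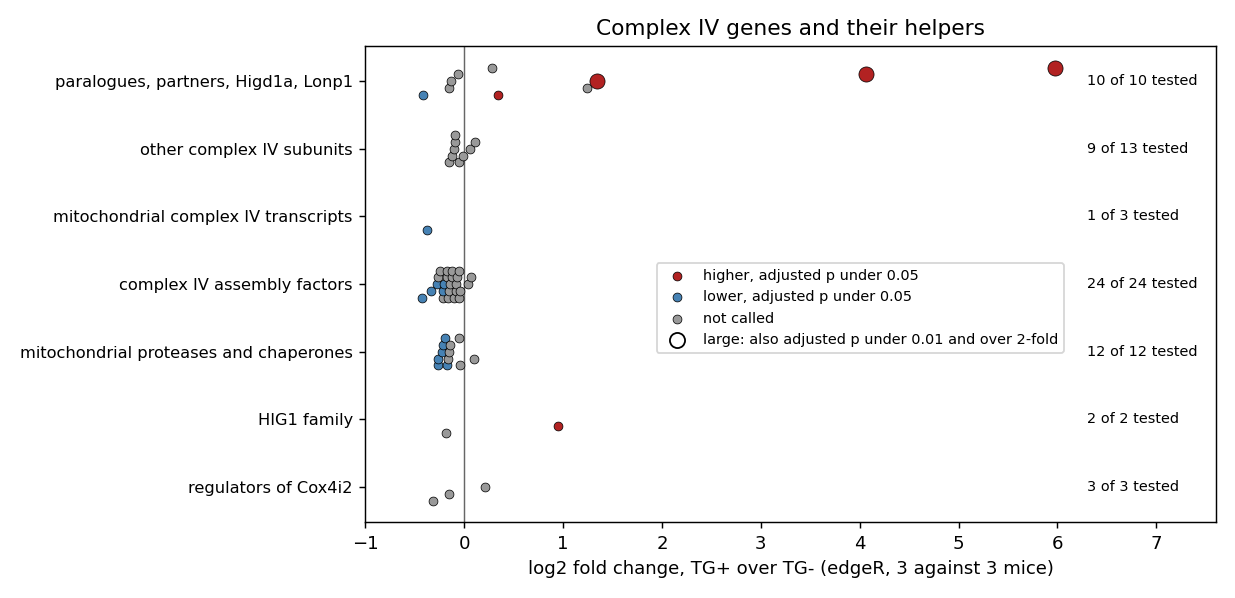
Log2 fold change, TG+ over TG-, of each tested gene in 7 groups of complex IV genes and helpers, from edgeR with 3 mice per group. Red and blue points passed an adjusted p of 0.05, large points also the study's threshold, and only Ndufa4l2, Cox4i2 and Higd1a are large. The tested genes of the other lists lie between -0.43 and 0.21, except Higd1b at 0.95.

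Markers of cell types also differed between the groups, and their part in the values above was not tested. The 8 proximal tubule markers summed to between 24680 and 28110 CPM in TG+ and between 32755 and 34621 CPM in TG-. These were the most abundant of the marker lists, and 8 of 8 had log2 fold changes below 0. By the study's threshold 1 of 8 was lower, the organic anion transporter Slc22a6 (log2 fold change -1.09, edgeR adjusted p = 4.82e-05), and 0 of 8 with library size alone. By the second rule 4 of 8 were lower, with a median of -0.38. The 8 endothelial markers summed to between 700 and 735 CPM in TG+ and between 407 and 531 CPM in TG-. By edgeR and by DESeq2 0 of 8 passed the study's threshold, and 8 of 8 were higher by the second rule, with a median of 0.66. COX4I2 is known as a transcript of pericytes and vascular smooth muscle, whose 11 markers summed to between 386 and 446 CPM in TG+ and between 225 and 266 CPM in TG-. Of these, 2 of 11 were higher by the study's threshold, Notch3 at 1.07 (edgeR adjusted p = 0.000152) and the potassium channel Kcnj8 at 2.70 (edgeR adjusted p = 1.35e-05), and 7 of 11 by the second rule, with a median of 0.71. The 11 log2 fold changes ran from 0.12 to 2.70, beside 4.06 for Cox4i2, whose TG- values rest on 8 to 20 reads per mouse. The part of these cells in the Cox4i2 value was not tested. Loop and distal nephron markers were called in 0 of 6 cases by either rule (unadjusted edgeR p, 1 of 6, and 0 called by DESeq2), but 2 of 6 were higher by the second rule with library size alone, with the replicate block and with each kidney as its own library, and 1 of 6 without 43-26. Immune markers were higher in 3 of 7 cases (Cd3e, Cd79a and Itgax) by the study's threshold and in 5 of 7 by the second rule, and fibroblast markers in 0 of 5 and 3 of 5. The fibroblast count by the second rule was 0 without 43-49, without 43-75 or without 43-76, and 1 without 43-26.

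The spread within a mouse was described by its kidneys, and it leaves out variation between mice. The absolute log2 difference between kidney 1 and kidney 2 had a median over the 6 mice of 0.0558 for Ndufa4l2, 0.0596 for Ndufa4, 0.0531 for Higd1a and 0.0158 for Lonp1. For Cox4i2 the median was 0.149 and the largest was 0.561, in 43-26 with 5 and 7 reads. For Cox7a1 the median was 0.187 and the largest was 0.321. Cox6a2 differed most, with a median of 0.352 and a largest value of 0.807 in 43-76.

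To name genes with a like pattern within the groups, log2 CPM was centred within genotype and Pearson's r was taken over the 12 libraries, among 12291 genes with a mean of at least 5 CPM. These values are a description, since the libraries come from 6 mice and kidneys of a mouse share its deviation. Nearest to Ndufa4l2 were Nr1d1 (r = 0.98), Palld (0.98), Kpna4 (0.97), Cdip1 (0.97) and Il15 (0.96). For Cox4i2 they included Spats2 (0.93), Gm11127 and Bap1 (0.92 each) and Gm15495 (0.91), for Cox6a2 Megf9 and Slc13a2 (0.94 each) and Cdc23, Plekha1 and Gpd1 (0.93 each), and for Cox7a1 Spag7 (0.87), Cst3 (0.85), Ypel1 and Gm6977 (0.82 each) and E030024N20Rik (0.81). Against the other 9 of the 10 complex IV genes, Ndufa4l2 had r values from -0.76 (Cox6a2) to 0.13 (Higd1a) and Cox4i2 from -0.41 (Ndufa4l2) to 0.71 (Higd1a). Those of Cox6a2 ran from -0.76 (Ndufa4l2) to 0.15 (Cox7a2), and those of Cox7a1 from -0.35 (Ndufa4l2) to 0.60 (Cox4i1).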

How the data were processed

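RNA from kidney cortex of 3 TG+ and 3 TG- mice, 2 kidneys each, was sequenced by the study as 51-bp single-end reads and analysed mainly with the Tuxedo tools. The submitters' notes name the build mm9. The counting program, annotation release and use of strand are not given in the sources used here. The authors deposited, for 37681 Ensembl genes, the raw read count per library. The authors also deposited RPKM, computed from each count plus 1 and scaled by what the column names call BUQ. The log2 RPKM columns that the authors deposited (the same values on a log2 scale, per the file headers) and their columns of fold changes, p-values and q-values were not used.

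Here the counts of both kidneys were summed per mouse (48052131 to 60506785 reads), filtered with filterByExpr, normalized by TMM and tested in edgeR 4.0.16 (limma 3.58.1, R 4.3.3) by the quasi-likelihood test, with Benjamini-Hochberg adjustment over 19399 genes. CPM used the TMM-normalized library size. SE values are over mice, on log2 CPM. Pair ratios were log2 of reads plus 0.5 per mouse. RPKM of a mouse is the mean of its kidneys. On simulated data with 19397 genes tested, 199 of 200 genes changed 4-fold were recovered, with 0 false calls among the unchanged genes. The simulation gave all genes a common dispersion and changed only genes above a floor of expected reads. It therefore does not describe genes with few reads or with a larger spread between mice. Symbols matched for 32642 genes (86.6%) through GENCODE M21 (GRCm38), which also gave positions, lengths and 51-base windows (principal transcript against transcripts of all other genes, both strands).

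The 10 genes and all lists were chosen with earlier results of these data known. The rule for named genes took the 10 genes, Hif1a, each list's genes past the study's threshold or otherwise its 2 highest and 2 lowest with at least 1 CPM, and for 4 paralogues the 5 genes with the highest correlation, of which 1 is not reported here. Other genes named, such as those past the second rule, Mb and Ckm, were chosen after their values were seen. Alternatives were DESeq2 1.42.0, library size alone, upper-quartile scaling, no filter, each kidney as a library, a replicate block, each mouse left out, another call rule, another pseudocount and RPKM ratios. Leaving out 5 libraries with fat or muscle transcripts and using other gene lengths were alternatives added once the data had been seen. Tables and plots were made in Python 3.11.15 (pandas 2.3.3, numpy 2.4.6, matplotlib 3.10.9).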

Additional observations from a re-analysis of the deposited data

How the results depend on the processing

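Directions and calls by the study's threshold held for Ndufa4l2 (log2 fold change 5.78 to 6.11), Cox4i2 (3.84 to 4.39) and Higd1a (1.28 to 1.46) under all alternatives run. The second rule brought in Ndufa4 (-0.42) and Lonp1 (0.34), and by it the counts became 2982 higher and 2105 lower genes of all tested, 1 lower of the 10 genes, 5 lower assembly factors, 6 lower proteases and chaperones, 1 higher in the HIG1 family, 1 lower mitochondrial transcript and 7 higher smooth muscle and pericyte markers. With library size alone, which moved the median of all tested genes to 0.13, Cox6a1 reversed to 0.06, Cox4i1 was at -0.03, Cox7a2 at -0.01, and 22 genes were lower (4511 higher and 947 lower by the second rule). Leaving out 1 mouse gave 469 (without 43-76) to 633 higher genes against 732, and 29 to 50 lower against 41. The libraries with fat or muscle transcripts, when left out, took the change of the log2 ratio of Cox7a1 to Cox7a2 to 0.35. Scaling and filters cannot change a ratio within a mouse and were not run for it. Other lengths (merged exons, principal transcript) gave TG+ shares of 68.1% and 52.5% for Ndufa4l2, 2.11% and 1.13% for Cox4i2, 0.842% and 0.687% for Cox6a2, and 9.68% and 9.25% for Cox7a1. The replicate block, which paired mice as their numbers stand in the table's name, gave 779 higher and 46 lower genes, and a log2 fold change of 1.12 for Cox6a2. It changed no call of the 10 genes by the study's threshold, but by the second rule Cox6a2 was called higher, the proteases and chaperones called lower fell to 3, without Clpx, Clpp and Oma1, and the fat markers called higher rose from 0 to 4 of 4 tested, those of smooth muscle and pericytes from 7 to 10 of 11, and those of loop and distal nephron from 0 to 2 of 6. It also called Higd2a lower, and changed other lists by at most 1 gene. Deviations of paired mice correlated at 0.345 (43-26 and 43-29), 0.298 (43-49 and 43-50) and -0.019 (43-75 and 43-76). These values do not decide whether the mice were paired. The table's name speaks of pairs but the sample labels do not state them, so the block was used only as an alternative. Read depth limits Cox4i2 in TG- (8 to 20 reads per mouse) and Cox6a2 (43 to 248 reads per mouse).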

Other observations

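Mb, the oxygen-binding protein myoglobin of heart and skeletal muscle, was detected in all 6 TG+ libraries, with 13 to 51 reads each. In TG- it had 0 reads in 5 of 6 libraries, and 29 reads in kidney 2 of 43-26, the one library with Ckm above 4 reads (34 reads). The gene was singled out after its values were seen. The edgeR adjusted p was 0.0971 with all mice, and DESeq2 gave 0.475. Over the edgeR fits that kept these 29 reads it ran from 0.0196 (each kidney as its own library) to 0.218 (without 43-49). Leaving out 43-26 removes every TG- read of the gene, so the edgeR value without it (0.00341) is no separate evidence. The cause was not tested.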
